A study of Mus musculus with 10 samples.

Results

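Ionotropic receptors are the ligand-gated channels of fast synaptic transmission, and their subunit genes were followed here in the hindbrain of newborn mice with and without the transcription factor Nkx2.2. The members were 37 listed genes for subunits of AMPA, NMDA, kainate, GABA-A, glycine, nicotinic and P2X receptors, taken as every probe set whose symbol in the platform's annotation included a listed gene. This gave 86 of 45037 non-control probe sets and 36 of the 37 genes, while Grin1 was not analysed here. Of the 36 genes, 7 had 1 probe set and 29 had several. Each gene is represented by its brightest probe set over the 10 mice among those that carry its symbol alone. For Gabrg3 this passed over a brighter probe set that carries a further gene symbol.

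RNA came from the pons, medulla and rostral spinal cord, taken from 20 µm sections of the brain. The mice were of the C57BL/6 strain and 1.5 to 2 days old, with 1 array a mouse. There were 5 wild-type mice, numbered 14, 15, 16, 18 and 21, and 5 littermates of genotype Nkx2.2-/-, numbered 11, 12, 22, 29 and 43. The comparison asks which transcripts differ when Nkx2.2 is missing. Values are log2 signals after RMA, which draws all arrays to the same distribution and gives no detection call. Levels on every array are given below in the order of the replicate numbers above, wild type first.

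Each receptor is an assembly of several subunits around a pore, and the subunits chosen set its conductance, speed and place on the cell. AMPA, NMDA and kainate receptors are tetramers opened by glutamate. GABA-A, glycine and nicotinic receptors are pentamers of the Cys-loop superfamily, and P2X receptors are trimers opened by ATP. In the brainstem and spinal cord, glycine shares the inhibitory work with GABA, and several families exchange juvenile for adult subunits as the animal matures. Nkx2.2 acts in ventral neural progenitors, in serotonergic neurons and in the oligodendrocyte lineage.

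The genotype labels were checked on Nkx2-2 itself, which lay between 6.42 and 6.88 in wild-type and between 4.24 and 4.73 in Nkx2.2-/- mice, so the groups differed by -2.05 on the log2 scale (SE 0.111; adjusted p = 7.2e-05 in limma; two-sided exact permutation p = 0.00794, the lowest reachable with these group sizes). The Gapdh control signal at the 3 prime end exceeded that at the 5 prime end by 2.13 in wild-type mouse 14 and by 3.78 in Nkx2.2-/- mouse 43 (log2), whereas this difference was -0.32 to 0.13 on the other 8 arrays. The mean of 10 neuron markers ran from 9.997 to 10.105 in wild type and from 9.861 to 10.261 in Nkx2.2-/- mice. Markers of myelinating oligodendrocytes had means of 6.88 to 7.26 in wild type and 5.91 to 6.18 in Nkx2.2-/- mice, with 6 of 7 measured markers lower by limma at an adjusted p under 0.05, and serotonergic markers had means of 5.88 to 6.35 and 5.06 to 5.39, with 3 of 5 lower. Of 8 measured forebrain and midbrain markers 5 were at or below the dim reference described next, as were 6 of 8 skeletal muscle markers. Regional markers did not pass the test, though the caudal Hox and cerebellar lists each lay to 1 side. The forebrain and midbrain markers did not, with 2 higher and 6 lower in Nkx2.2-/- mice. Caudal Hox genes, of spinal cord, were higher in Nkx2.2-/- mice in 8 of 8, with a median log2 change of 0.24. The changes were uneven, from 0.001 for Hoxd9 to 1.33 for Hoxc8 (95% interval 0.33 to 2.32). Hoxc8 also varied between Nkx2.2-/- mice, with an SD of 1.17 against 0.12 in wild type (n = 5 each). Of the 8 genes 2 had an unadjusted limma p under 0.05, and 4, Hoxc8 among them, were dim in wild type. Means of the list were 4.99 to 5.18 in wild type and 5.12 to 5.71 in Nkx2.2-/- mice. Cerebellar markers were lower in 11 of 11, with a median of -0.09. With either mean as a covariate, 0 of 86 member probe sets were called by limma.

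Wild-type levels were first set against a dim reference. The reference was the 95th percentile, 5.04, of the wild-type means of 44 olfactory receptor probe sets, a gene family known from the nose. Of the 36 subunit genes 29 lay above it and 7 did not, a share of 80.6% against 68.1% of the 18193 genes with a probe set of their own. The 7 at or below it were Grin2a, Grin2c, Gabra6, Gabrg3, Gabrd, Chrna5 and Chrnb4. Of 15 measured genes known from other tissues only 10 were at or below the reference, while Prm1 and Ins2 had wild-type means of 5.48 and 5.44. Grik4, at 5.48, and P2rx2, at 5.45, were at about that level, so lying above the reference does not show that they are expressed. The place of Gabrg3 rests on leaving out its probe set with a further gene symbol, which was just above the reference at 5.09, while its other 4 were below. Probe sets differ in how well they bind their transcript, so a level says where a gene stands on the array and not how many transcripts it has beside another gene. A gene called above the reference could also have dim probe sets, as did 16 of the 24 such genes with several. Among the 5 probe sets for Gabra2, for example, wild-type means ran from 4.05 to 7.07, and among the 4 for Gabrb1 from 3.83 to 8.18.

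**Figure D1:**
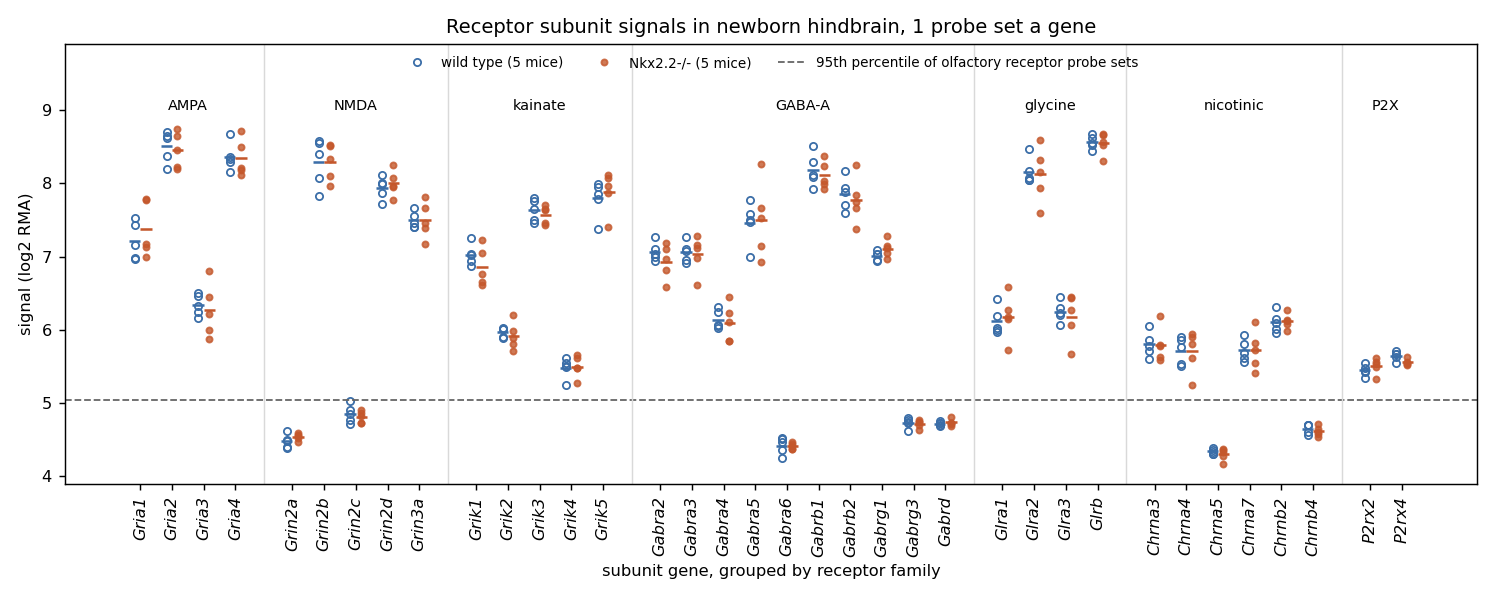
Signal (log2 RMA) of 36 receptor subunit genes on each array, grouped by receptor family, with open circles for 5 wild-type and filled circles for 5 Nkx2.2-/- mice and short lines for the group means. The dashed line is the dim reference at 5.04, which 29 genes exceeded in wild type and 7 did not, and for every gene the circles of both genotypes overlap.

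All 4 AMPA receptor subunits, which carry most fast excitation, were above the dim reference in wild type. Gria2, the subunit whose edited form keeps calcium out of the channel, read 8.20, 8.37, 8.62, 8.64 and 8.69 in the 5 wild-type mice, a mean of 8.51 ± 0.212 (SD, n = 5) above 95.4% of probe sets. Its 3 probe sets had wild-type means from 7.26 to 8.51, all above the reference. Gria4 had a mean of 8.36 ± 0.191 (SD, n = 5), above 94.8% of probe sets, and Gria1 one of 7.21 ± 0.259, above 87.0%. The 3 probe sets for Gria4 ran from 4.83 to 8.36, with 2 above the reference. Gria3 had a mean of 6.34 ± 0.147.

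Of the NMDA receptor subunits, those known from young brain had bright probe sets and those that join later did not. Grin2b, the subunit that dominates before and around birth, read 7.82, 8.40, 8.08, 8.58 and 8.55 in wild type, with a mean of 8.29 ± 0.327 (SD, n = 5) above 94.5% of probe sets. Its 4 probe sets had wild-type means from 4.78 to 8.29, with 3 above the reference. Grin2d, a subunit of slow receptors in juvenile brainstem and cord, had a mean of 7.94 ± 0.153, and Grin3a, which lowers calcium entry in juvenile receptors, had one of 7.49 ± 0.111. Grin2a, which takes over from Grin2b as synapses mature, read 4.62, 4.50, 4.40, 4.39 and 4.48 in wild type, so no wild-type array rose above the dim reference. Grin2c, typical of mature cerebellar granule cells, had a mean of 4.85 ± 0.125 (SD, n = 5) and was likewise below the reference. Each of Grin2a and Grin2c was read by 1 probe set, so a probe set that binds poorly cannot be told apart from a low transcript.

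All 5 kainate receptor subunits were above the reference. The means were 7.63 ± 0.153 for Grik3 and 7.02 ± 0.144 for Grik1, which can form channels by themselves, and 5.97 ± 0.0641 for Grik2, another of that kind (SD, n = 5 each). Grik5, which needs such a partner, had a mean of 7.79 ± 0.249, and Grik4, its relative, one of 5.48 ± 0.140. Grik4 was the member of this family nearest to the reference, at about the level of Prm1, a gene known from other tissues.

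GABA-A receptors are built mostly from alpha, beta and gamma subunits, and 7 of the 10 members were above the reference. Gabra2, an alpha subunit of young neurons, read 6.94, 7.0, 7.26, 7.10 and 7.04 in wild type, a mean of 7.07 ± 0.125 above 85.6% of probe sets. The other alpha subunits above the reference were Gabra5, at 7.46 ± 0.288, Gabra3, at 7.06 ± 0.143, and Gabra4, at 6.14 ± 0.130 (SD, n = 5 each). Both beta subunits were bright, Gabrb1 with a mean of 8.18 ± 0.222 and Gabrb2 with one of 7.86 ± 0.219, and the gamma subunit Gabrg1 had a mean of 7.01 ± 0.0648. Gabra6, a marker of mature cerebellar granule cells, read 4.46, 4.36, 4.51, 4.52 and 4.25 in wild type, and both of its probe sets were below the reference. Gabrd, the delta subunit of receptors outside synapses, had a mean of 4.72 ± 0.0320 (SD, n = 5), and both of its probe sets were below it too. Gabrg3 had a mean of 4.73 ± 0.0677.

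All 4 glycine receptor subunits were above the reference. Glrb, the beta subunit that ties the receptor to the scaffold protein gephyrin, read 8.44, 8.55, 8.62, 8.53 and 8.67 in wild type and had the highest percentile of any member, above 95.6% of probe sets. Glra2, the alpha subunit of the fetal receptor, read 8.46, 8.08, 8.04, 8.17 and 8.04, a mean of 8.16 ± 0.179 above 93.9% of probe sets. Glra1, the alpha subunit of the adult receptor, read 5.99, 6.02, 6.19, 5.97 and 6.42, with a mean of 6.12 ± 0.189 above 73.2% of probe sets. Glra3 had a mean of 6.25 ± 0.140 (SD, n = 5). Glra1 and Glra3 each had a second, dim probe set, with wild-type means of 4.52 and 4.43.

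Of the nicotinic subunits 4 of 6 were above the reference, as were both P2X subunits. Chrnb2, the partner of Chrna4 in the main heteromeric receptor of the brain, had a mean of 6.11 ± 0.135 and Chrna4 one of 5.72 ± 0.184 (SD, n = 5 each). Chrna7, which forms receptors by itself, had a mean of 5.72 ± 0.153, and Chrna3, of receptors in autonomic ganglia and some brainstem nuclei, one of 5.80 ± 0.171. Chrna5 and Chrnb4, which join Chrna3 in those receptors, had means of 4.34 ± 0.0341 and 4.65 ± 0.0641 and lay below the reference in both probe sets of each. Of the P2X subunits, P2rx4, found in neurons and microglia, had a mean of 5.65 ± 0.0633, and P2rx2, of sensory and respiratory neurons, one of 5.45 ± 0.0788, both above the reference. P2rx2 was at about the level of Ins2, a gene known from other tissues.

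Some members lie next to each other on the chromosome, by the order of protein-coding genes in RefSeq assembly GRCm38.p6, and neighbours did not always share a level. Gabrg1 and Gabra2 are adjacent, as are Gabra4 and Gabrb1, with 1 gene between the pairs, and all 4 were above the reference. Chrna5, Chrna3 and Chrnb4 are adjacent too, and of these only Chrna3 was above it. Gabrb2 was above and its neighbour Gabra6 below, and Gabra5 was above and its neighbour Gabrg3 below. Gria2 and Glrb, from different receptor families, are neighbours and were both above 95% of probe sets.

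No subunit passed the test between genotypes. Of the 86 member probe sets 0 were called by limma at a Benjamini-Hochberg adjusted p under 0.05, against 0.0511% of all non-control probe sets, and the lowest adjusted p of any member was 0.9997. With 1 probe set a gene 0 of 36 were called, against 0.0605% of genes. At an unadjusted limma p under 0.05 the count was also 0 of 86, against 3.43% of all probe sets, and the groups failed to overlap in 0 of 86, against 0.757%. The median log2 change over the member probe sets was -0.001, and over all probe sets it was 0.001. By sign 40 member probe sets were higher and 46 lower in Nkx2.2-/- mice, and 50.8% of all probe sets were higher. With 1 probe set a gene 12 subunits were higher and 24 lower. Their median log2 change was -0.015, against -0.004 over all genes, and the split by sign was not tested. In tissue RNA, fewer cells of a type and less RNA per cell cannot be told apart.

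The intervals say how large a change could have gone unseen. For all 36 genes the 95% interval of the log2 change lay within -1 to 1, and for 34 of 36 within -0.5 to 0.5, which corresponds to 1.41-fold either way. The exceptions were Gria1, with a log2 change of 0.16 (95% interval -0.23 to 0.55), and Gabra5, with 0.04 (95% interval -0.46 to 0.55). Over all 86 probe sets 81 intervals lay within -0.5 to 0.5, a share that was 97% over all probe sets, and 86 within -1 to 1. Those reaching further included dimmer probe sets for Gria2 (95% interval -0.32 to 0.68) and Gria4 (95% interval -0.43 to 0.56), both above the dim reference. A glycine receptor probe set had an interval down to -0.57. For such genes the brightest probe set alone does not bound the change. RMA compresses differences between dim probe sets, so a narrow interval of a gene below the dim reference, such as Gabrd or Chrna5, bounds its signal more than its transcript.

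**Figure D2:**
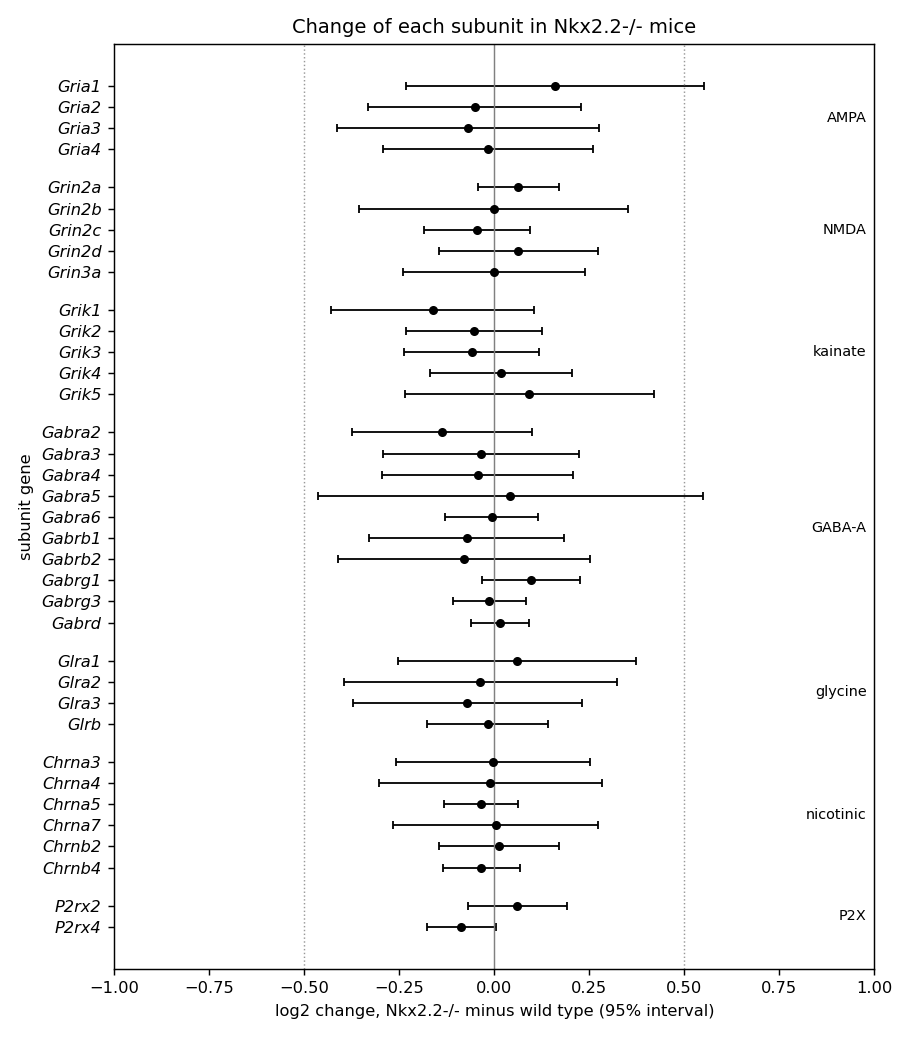
Log2 change (Nkx2.2-/- minus wild type) of 36 subunit genes by receptor family, with 95% intervals from limma on 5 against 5 mice. Every interval includes 0 and all lie between -0.46 and 0.55, with dotted lines at -0.5 and 0.5.

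Among AMPA subunits the log2 changes ran from -0.07 to 0.16. Gria1 read 7.53, 6.96, 6.98, 7.44 and 7.15 in the wild-type mice and 7.0, 7.17, 7.13, 7.77 and 7.78 in the Nkx2.2-/- mice. The highest Nkx2.2-/- readings were those of replicates 29 and 43, the lowest readings were wild type, and the other 3 Nkx2.2-/- mice lay within the wild-type range. Gria2 read 8.23, 8.46, 8.20, 8.65 and 8.74 in the Nkx2.2-/- mice, a log2 change of -0.05 (95% interval -0.33 to 0.23), with all but the highest of these within the wild-type range. Its other probe sets had log2 changes of 0.18 and 0.09. Gria3 and Gria4 had log2 changes of -0.07 (95% interval -0.41 to 0.28) and -0.02 (95% interval -0.29 to 0.26).

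Among NMDA subunits the log2 changes ran from -0.05 to 0.06 with 1 probe set a gene. Over all probe sets they ran from -0.12, for a dimmer one of Grin2b, to 0.15, for a dimmer one of Grin3a. Both of these lay above the dim reference. Grin2b read 8.10, 8.33, 8.51, 8.52 and 7.96 in the Nkx2.2-/- mice, all within the wild-type range, with a log2 change of -0.002 (95% interval -0.36 to 0.35). Grin2a read 4.52, 4.59, 4.48, 4.56 and 4.55 in the Nkx2.2-/- mice, again within the wild-type range, with a log2 change of 0.06 (95% interval -0.04 to 0.17). These are the juvenile and the adult partner of Grin1, and in neither did the genotypes separate. Grin2d had a log2 change of 0.06 (95% interval -0.15 to 0.27), Grin2c one of -0.05 (95% interval -0.19 to 0.10), and Grin3a one of -0.0001 (95% interval -0.24 to 0.24).

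Among kainate subunits Grik1 had the largest difference, a log2 change of -0.16 (95% interval -0.43 to 0.10) with an unadjusted limma p of 0.205. It read 7.25, 7.02, 6.87, 6.93 and 7.04 in the wild-type mice and 6.61, 6.76, 6.66, 7.05 and 7.23 in the Nkx2.2-/- mice. Nkx2.2-/- replicates 11, 12 and 22 lay below every wild-type mouse, while 29 and 43 lay among the higher wild-type readings. The other probe set for Grik1, also above the dim reference, did not repeat the difference, with a log2 change of 0.01 (95% interval -0.23 to 0.26). Grik3 read 7.49, 7.64, 7.46, 7.80 and 7.76 in the wild-type mice and 7.43, 7.63, 7.46, 7.64 and 7.70 in the Nkx2.2-/- mice, a log2 change of -0.06 (95% interval -0.24 to 0.12), with Nkx2.2-/- mice 11 and 22 at or just below the lowest wild-type reading and the other 3 within the wild-type range. Grik2, Grik4 and Grik5 had log2 changes of -0.05 (95% interval -0.23 to 0.13), 0.02 (95% interval -0.17 to 0.20) and 0.09 (95% interval -0.24 to 0.42).

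Among GABA-A subunits the log2 changes ran from -0.14 for Gabra2 to 0.10 for Gabrg1 with 1 probe set a gene. Over all probe sets of the family they ran from -0.22 to 0.16. Gabra2 read 6.58, 6.96, 6.82, 7.19 and 7.10 in the Nkx2.2-/- mice, a mean of 6.93 ± 0.239 (SD, n = 5) and a log2 change of -0.14 (95% interval -0.37 to 0.10). Replicates 11 and 22 lay below the wild-type range and the other 3 within it. Gabrg1 read 6.95, 7.04, 7.09, 7.03 and 6.94 in the wild-type mice and 6.96, 7.11, 7.05, 7.14 and 7.28 in the Nkx2.2-/- mice, a log2 change of 0.10 (95% interval -0.03 to 0.23) with an unadjusted limma p of 0.127. The highest 3 readings were of Nkx2.2-/- mice and the others were mixed. Gabra6 read 4.47, 4.44, 4.38, 4.37 and 4.42 in the Nkx2.2-/- mice, inside the wild-type range, with a log2 change of -0.01 (95% interval -0.13 to 0.12). Of the bright beta subunits Gabrb1 had a log2 change of -0.07 (95% interval -0.33 to 0.18) and Gabrb2 one of -0.08 (95% interval -0.41 to 0.25). A dimmer probe set for Gabrb2 had the lowest log2 change of any member probe set, -0.22 (95% interval -0.44 to 0.01). Gabra3, Gabra4, Gabrg3 and Gabrd had log2 changes of -0.03, -0.04, -0.01 and 0.02.

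Among glycine receptor subunits the log2 changes ran from -0.07 to 0.06 with 1 probe set a gene. Over all probe sets of the family they ran from -0.10 to 0.06. Glra2 read 7.60, 8.16, 7.93, 8.32 and 8.59 in the Nkx2.2-/- mice, a log2 change of -0.04 (95% interval -0.40 to 0.32). Its Nkx2.2-/- readings reached both below and above the wild-type range. Glra1 read 5.73, 6.17, 6.58, 6.28 and 6.15 in the Nkx2.2-/- mice, a log2 change of 0.06 (95% interval -0.25 to 0.37), and also spread beyond wild type on both sides. Glrb read 8.30, 8.53, 8.66, 8.67 and 8.56, a log2 change of -0.02 (95% interval -0.18 to 0.14), and only the lowest of these readings fell outside the wild-type range. Glra3 had a log2 change of -0.07 (95% interval -0.37 to 0.23).

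Among nicotinic subunits the log2 changes ran from -0.03 to 0.01 with 1 probe set a gene. Over all probe sets of the family they ran from -0.17 to 0.03, with intervals down to -0.38. Chrna4 read 5.54, 5.91, 5.86, 5.76 and 5.51 in the wild-type mice and 5.81, 5.91, 5.61, 5.95 and 5.25 in the Nkx2.2-/- mice, with a log2 change of -0.01 (95% interval -0.30 to 0.28). Chrna7 read 5.81, 5.61, 5.93, 5.68 and 5.56 in the wild-type mice and 5.55, 5.73, 5.41, 5.82 and 6.11 in the Nkx2.2-/- mice, with a log2 change of 0.004 (95% interval -0.27 to 0.27). For both, Nkx2.2-/- replicate 43 stood at an end of the whole series, as the lowest reading of Chrna4 and the highest of Chrna7. Chrna5 read 4.31, 4.38, 4.37, 4.33 and 4.30 in the wild-type mice and 4.17, 4.28, 4.37, 4.34 and 4.37 in the Nkx2.2-/- mice, with a log2 change of -0.03 (95% interval -0.13 to 0.06). Chrnb4 read 4.70, 4.61, 4.56, 4.70 and 4.70 in the wild-type mice and 4.65, 4.58, 4.61, 4.54 and 4.72 in the Nkx2.2-/- mice, with a log2 change of -0.03 (95% interval -0.13 to 0.07). The genotypes overlapped in both. Chrna3 and Chrnb2 had log2 changes of -0.003 (95% interval -0.26 to 0.25) and 0.01 (95% interval -0.15 to 0.17). The 3 probe sets for Chrna3 differed, with log2 changes from -0.17 to 0.03.

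The P2X subunit P2rx4 had the lowest unadjusted p of any member, 0.0577 by limma. It read 5.66, 5.63, 5.68, 5.71 and 5.55 in the wild-type mice and 5.55, 5.63, 5.56, 5.53 and 5.52 in the Nkx2.2-/- mice, a log2 change of -0.09 (95% interval -0.18 to 0.003). Nkx2.2-/- readings covered the lower part of the wild-type range and went just below it. Its 3 dimmer probe sets had log2 changes from -0.003 to 0.01. P2rx2 read 5.55, 5.44, 5.48, 5.43 and 5.34 in the wild-type mice and 5.33, 5.50, 5.53, 5.62 and 5.56 in the Nkx2.2-/- mice, with a log2 change of 0.06 (95% interval -0.07 to 0.19) and overlapping groups.

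Because Nkx2.2 is a DNA-binding homeodomain factor, the stretches before the gene starts were searched for TNAAGTG, core letters bound by homeodomain proteins of the NK2 class, on both strands. RefSeq sequences of build GRCm38.p6 were matched for 27 of the 36 genes, with 32 starts in all, and the 250 bases before each start were read. Genes without an entry were Gria1, Gria3, Grin2a, Grin2b, Grin3a, Grik1, Gabrd, Glra1 and P2rx2. The motif was in 1 of 32, against 10.1% of 32851 such stretches over the genome. The match was in Glra2, the fetal glycine receptor subunit, 70 bases before its start, and its upstream stretch at chrX:165327394-165327643 on the minus strand is shown with the match in capitals, because it is the only member stretch that holds one.
Glra2 upstream: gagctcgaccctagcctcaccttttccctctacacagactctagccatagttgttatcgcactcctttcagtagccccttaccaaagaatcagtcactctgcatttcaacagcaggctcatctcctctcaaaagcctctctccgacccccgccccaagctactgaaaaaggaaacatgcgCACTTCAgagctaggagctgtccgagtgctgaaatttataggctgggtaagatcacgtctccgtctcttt
Glra2 is a bright member whose log2 change was -0.04. A match is a description of these letters and not a binding site, and no match says only that the letters are not in this window.

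Genes that work with these receptors were given by 4 lists. Of 47 measured genes 0 were called in either direction by limma, 0 had an unadjusted p under 0.05, and their median log2 change was 0.02. Among 23 accessory proteins of glutamate receptors the median log2 change was -0.01, with Cacng7, of the AMPA receptor auxiliary family, at -0.21 (95% interval -0.50 to 0.08) and Pick1, which binds AMPA receptors inside the cell, at 0.07. Among 12 accessory proteins of GABA-A and glycine receptors it was 0.04, with Iqsec3, of inhibitory synapses, at 0.21 (95% interval -0.02 to 0.45) and Nlgn2, the adhesion protein of those synapses, at 0.12. Among 7 accessory proteins of nicotinic receptors it was 0.05, with Ly6e at -0.19 and Tmem35a, which helps the receptors to assemble, at -0.15. Among 5 genes of chloride and bicarbonate handling, which set whether GABA and glycine excite or inhibit, it was 0.06, with Car7 at -0.09 and Clcn2 at 0.10.

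Receptor subunits varied more from mouse to mouse within the Nkx2.2-/- group than within wild type. For the 29 genes above the dim reference the median SD was 0.250 in Nkx2.2-/- mice and 0.153 in wild type, and the SD was the higher of the pair in Nkx2.2-/- mice for 24 of 29. Over all genes above the reference the median SDs were 0.145 and 0.124, and 64.5% had the higher SD in Nkx2.2-/- mice. The difference in spread was not tested. In Nkx2.2-/- replicate 11, 1 of the 29 genes was above its group mean, against 34.0% of all genes above the reference. In replicate 29, 27 of 29 were, against 77.7%. Replicate 11 held the lowest reading of the 10 arrays for 14 of 36 subunits, against 12.9% of all genes, and replicate 43 held the highest for 14 of 36, against 19.6%. These counts of subunits were not tested against other genes. Replicate 43 was also the array with the largest Gapdh difference between the 3 prime and 5 prime ends, 3.78 against 2.13 in wild-type replicate 14. The part of this difference in the spread was not tested.

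In the Nkx2.2-/- mice neuron markers varied alongside the subunits, and so did astrocyte markers. The neuron marker mean deviated from the Nkx2.2-/- group mean by -0.21 in replicate 11, -0.12 in 22, -0.05 in 12, 0.19 in 29 and 0.19 in 43. The median deviations of the 29 subunits were -0.18, -0.11, -0.01, 0.16 and 0.26 in the same order. Astrocyte marker means were 8.54, 8.71, 8.78, 8.97 and 8.99 in that order, against 8.70 to 8.89 in wild type. The variation was thus not particular to neuron markers. In wild type the neuron marker mean deviated by -0.04 to 0.06 and the subunit median by -0.07 to 0.10. Cerebellar marker means were 7.19 in replicate 11 against 6.16 to 6.35 in the other Nkx2.2-/- mice, and were as high as 7.38 in wild-type replicate 18, where 15 of the 29 subunits were above their group mean. The part of these marker differences in the spread was not tested.

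**Figure D3:**
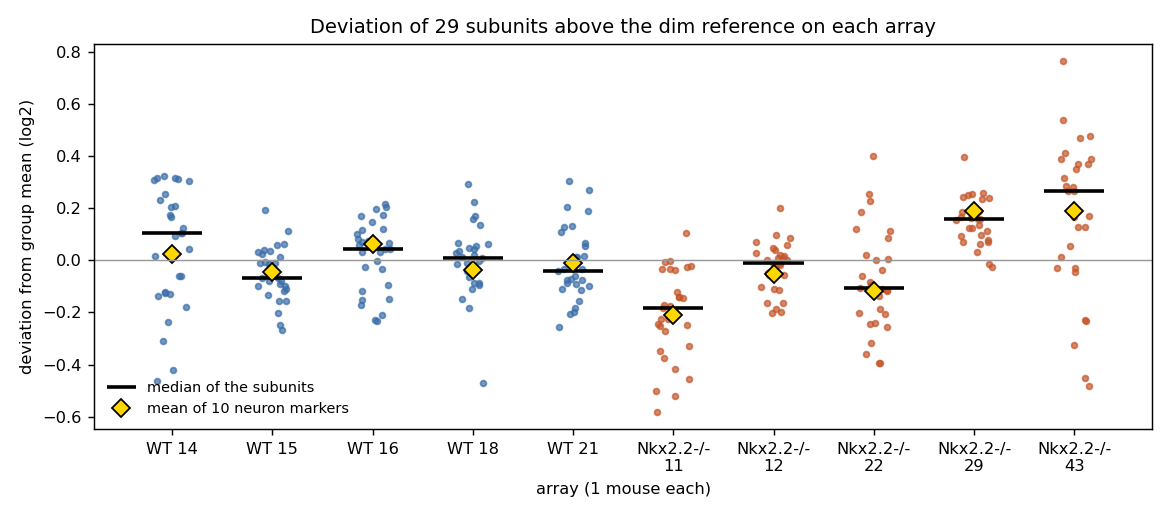
Deviation from the group mean (log2) of the 29 subunit genes above the dim reference on each of 10 arrays, with the median as a black line and the mean of 10 neuron markers as a diamond. The wild-type medians stay between -0.07 and 0.10, while those of the Nkx2.2-/- mice run from -0.18 in replicate 11 to 0.26 in replicate 43. The diamonds run in nearly the same order in the Nkx2.2-/- mice, but are level at 0.19 in replicates 29 and 43. They do not in wild type, where replicate 14 has the highest median and replicate 16 the highest diamond. In the Nkx2.2-/- mice astrocyte marker means, not drawn, ran in the same order as the medians.

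The arrays of low 5 prime Gapdh signal, 1 of each genotype, stood apart for many genes on the array. Both lay outside the range of the other 8 for 23.3% of all genes, and for 12 of 36 subunits, in 8 above and in 4 below. Deviations of both arrays from the other mice of their genotype had the same sign for 66.7% of subunits and 69.2% of all genes, a share near that of the whole array. Grik5 read 7.37 and 7.40 on these arrays and 7.79 to 8.12 on the others, and Grin2b read 7.82 and 7.96 against 8.08 to 8.58. Grik4 was low too, at 5.24 and 5.27 against 5.47 to 5.66. Gabrb2 was high, at 8.17 and 8.25 against 7.38 to 7.93, and so was Glra2, at 8.46 and 8.59 against 7.60 to 8.32. Gabra5 read 7.77 and 8.27 against 6.92 to 7.66, and Gria4 read 8.67 and 8.71 against a highest other reading of 8.5. Without both arrays 0 of 86 member probe sets were called by limma, and the lowest adjusted p was 0.880.

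**Figure D4:**
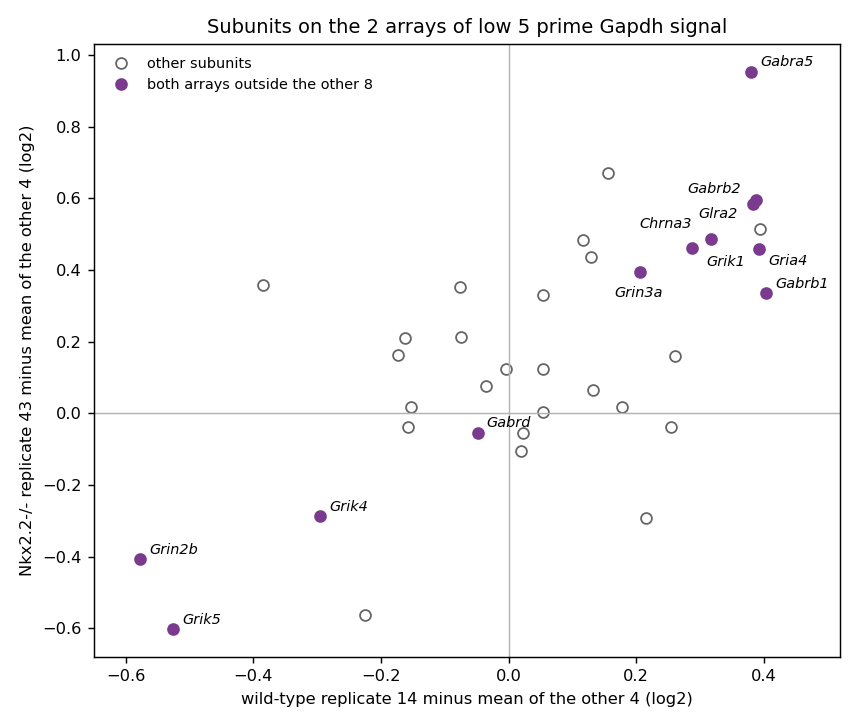
Each point is a subunit gene, with wild-type mouse 14 minus the mean of the other 4 wild-type mice on the x axis and Nkx2.2-/- mouse 43 minus the mean of the other 4 Nkx2.2-/- mice on the y axis (log2). Filled points are the 12 genes for which both arrays lay outside the other 8, with Grik5, Grin2b and Grik4 low and Gabra5, Gabrb2 and Glra2 high on both.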

How the data were processed

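Expression was measured on 1 array for each of 10 mice, grouped by the sample titles. The authors deposited log2 expression values, for which the submitters' processing notes name RMA. Its version and the build behind the probes are not given in the sources used here. The number of arrays limits the precision.

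The 64 control probe sets were left out. Of the others 34945 had 1 gene symbol, 932 several and 9160 none in the platform's annotation. All 36 measured members matched RefSeq by Entrez number, with 0 symbols changed. The test between genotypes was limma 3.58.1 (lmFit, eBayes; R 4.3.3), without covariates or a filter, with Benjamini-Hochberg adjustment over 45037 probe sets at 0.05, and tested on simulated data. Summaries and figures used Python 3.11.15, pandas 2.3.3, scipy 1.17.1 and matplotlib 3.10.9.

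The members and lists were chosen with earlier results of these data known. All measured members are named. Readings on every array are given for the 10 genes of lowest p and for textbook juvenile, adult and core subunits. Of each accessory list the 2 of lowest p are named. Alternatives were normalization, a filter on dim probe sets, 1 probe set a gene, the prior, array weights, covariates, other dim references and left-out arrays.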

Additional observations from a re-analysis of the deposited data

How the results depend on the processing

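Under 21 alternatives, 0 member probe sets and 0 accessory genes were called by limma, and the lowest adjusted p of a member was 0.619, with array weights. All 749 recomputed changes of single subunits stayed short of the threshold. In 104 of them the sign differed from that of the full comparison, so no direction is read from any subunit. The largest change of a subunit under any alternative was 0.28 in size, with the caudal Hox mean as a covariate, where intervals reached -0.72 and 0.70. The median over member probe sets ran from -0.02 to 0.01. At an unadjusted p under 0.05, where the full comparison had 0 of 86, the count was 4 with array weights (7.23% of all probe sets), 4 with the neuron marker mean (4.80%) and 4 with the Gapdh difference (4.62%) as a covariate, both chosen after seeing the data, 2 with quantile normalization (3.63%), 2 with the caudal Hox mean as a covariate (4.64%), 2 without both arrays of low 5 prime Gapdh signal (4.22%), 1 with a common median (3.44%) and 1 with a trend and robust prior (3.48%). No such count is read as a result about the subunits. It was 0 with the brighter probe sets, 1 probe set a gene or the cerebellar mean as a covariate, and from 0 to 2 without each array in turn. The cause of these differences was not tested. Between 28 and 29 of 36 genes were above the dim reference under its alternatives. Nkx2-2 passed under all 21 alternatives. No paired analysis was possible because the labels used here do not give each mouse's litter and the genotypes share no replicate number. For the 7 genes below the dim reference, dim signal limits what a change could show.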
